A study of Homo sapiens with 18 samples.

Results

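Antisense-named transcripts are genes whose symbol ends in -AS, with or without a number, because they lie opposite or beside a named sense gene. Of 26485 gene symbols in each count table, 999 carried such a name, and 114 of these had a mean of at least 30 raw counts per library in at least 1 group of 3 libraries. Those 114 are described here. They were chosen by the raw counts of these same libraries, so their levels are given as a description. A member that reached 30 counts in only 1 of a line's groups had to differ between them, and the calls per line are therefore split by this below. Counts by arrangement, by pair and over several lines were not split by it. Just outside the minimum were TOPORS-AS1 at 29, ZNF436-AS1 at 29.3 and RBM26-AS1 at 29.3 mean counts in their highest group, and just inside were RASAL2-AS1 at 30, MNX1-AS1 at 31.0 and ELFN1-AS1 at 31.0. In all, 49 members reached the minimum in all 3 lines, 25 in 2 lines and 40 in 1 line. A further 264 antisense-named rows had no count in any library. All 114 members passed the expression filter of the test.

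The study treated 3 human pancreatic ductal adenocarcinoma cell lines, BxPC3, Panc327 and SUIT2, for 6 h with 100 nM THZ1 or with DMSO, its solvent control. THZ1 binds CDK7 covalently and inhibits this kinase of the general transcription machinery that phosphorylates RNA polymerase II. Each line and treatment gave 3 libraries, 18 in all, of polyadenylated RNA. The series addresses resistance to transcriptional inhibition. No group carried a genetic change by its labels, and every group is 1 cell line in culture. Whether the 3 libraries of a group were grown separately is not stated in the labels. The p-values therefore reflect the spread among the libraries alone, and that spread may be technical.

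Many human promoters start transcription in both directions. The upstream antisense RNA is usually short and is degraded in the nucleus by the exosome with adaptor complexes, while some antisense transcripts are spliced, polyadenylated and stable enough to be named as genes. Other antisense genes start inside or beyond their sense gene and overlap its body. Several long-lived members are known: OIP5-AS1 binds microRNAs and RNA-binding proteins, AFAP1-AS1 is abundant in many carcinomas, and ZEB1-AS1 shares its promoter region with ZEB1, a transcription factor of epithelial-mesenchymal transition.

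In the GENCODE 29 annotation of GRCh38, 111 members were found and 109 lay beside a placed sense gene. Of these pairs, 62 were head-to-head, with starts at most 1000 bases apart or gene bodies overlapping at their 5' ends, and their median distance from start to start was 339 bases. Another 46 overlapped in other arrangements and 1, FOXD2-AS1, lay apart. A pair shared exonic bases in 70 of 109 cases. The library kit does not mark strand and the counting mode is not stated, so reads from such shared bases cannot be assigned to either gene with certainty. The same holds for unspliced sense RNA where a member's exon lies in a sense intron. Where exons overlapped, a median of 9.91% of the member's exonic bases lay within sense exons. GENCODE classed 69 members as antisense, 17 as lincRNA and 16 as processed transcript. It classed 3 as protein coding: FAM83H-AS1, MMP24-AS1 and NCBP2-AS2.

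Stretches of the region around the start of 6 head-to-head members are printed. In 1 or more lines these members moved apart from their sense genes, or in WAC-AS1 along with it. They come from RefSeq on GRCh38.p14, are written 5' to 3' on the member's strand, and leave out bases annotated as untranslated region. Capitals mark matches to 2 promoter motifs, searched on both strands. The GC box, bound by Sp-family factors, was searched as GGGCGG. The box bound by the factor NF-Y was searched as CCAAT. In MNX1-AS1 1 match to the GC box overlaps its neighbour.
NNT-AS1 (chr5:43603295-43603480, minus strand): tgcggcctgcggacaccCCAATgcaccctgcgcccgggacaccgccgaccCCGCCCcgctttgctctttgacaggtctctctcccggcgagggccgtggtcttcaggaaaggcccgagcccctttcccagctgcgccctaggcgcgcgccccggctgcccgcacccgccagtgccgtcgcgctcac
MNX1-AS1 (chr7:157010652-157010906, plus strand): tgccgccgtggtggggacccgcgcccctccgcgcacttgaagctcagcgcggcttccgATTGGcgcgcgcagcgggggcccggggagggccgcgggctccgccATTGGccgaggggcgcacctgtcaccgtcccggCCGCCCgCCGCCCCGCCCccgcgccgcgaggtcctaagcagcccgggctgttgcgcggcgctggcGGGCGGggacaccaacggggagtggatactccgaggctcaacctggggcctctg
TMEM147-AS1 (chr19:35545980-35546279, minus strand): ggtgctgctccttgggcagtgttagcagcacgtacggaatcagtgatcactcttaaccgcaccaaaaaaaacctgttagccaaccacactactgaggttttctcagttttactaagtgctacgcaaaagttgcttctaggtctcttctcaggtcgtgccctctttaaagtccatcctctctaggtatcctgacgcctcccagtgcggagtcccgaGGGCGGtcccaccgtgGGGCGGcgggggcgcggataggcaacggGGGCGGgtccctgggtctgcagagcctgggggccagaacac
TMPO-AS1 (chr12:98516177-98516476, minus strand): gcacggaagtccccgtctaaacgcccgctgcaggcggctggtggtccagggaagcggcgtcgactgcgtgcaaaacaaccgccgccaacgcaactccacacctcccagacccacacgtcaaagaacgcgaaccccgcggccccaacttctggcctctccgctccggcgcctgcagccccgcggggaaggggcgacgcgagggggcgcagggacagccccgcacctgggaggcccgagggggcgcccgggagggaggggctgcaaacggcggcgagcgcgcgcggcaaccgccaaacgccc
KMT2E-AS1 (chr7:105014092-105014178, minus strand): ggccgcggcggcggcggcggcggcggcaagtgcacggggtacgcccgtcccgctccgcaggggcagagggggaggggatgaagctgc
WAC-AS1 (chr10:28532305-28532492, minus strand): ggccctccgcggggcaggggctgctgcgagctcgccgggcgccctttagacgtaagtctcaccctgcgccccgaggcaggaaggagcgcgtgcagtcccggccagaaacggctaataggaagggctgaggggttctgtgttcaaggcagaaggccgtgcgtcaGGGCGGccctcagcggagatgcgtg
These 6 stretches held 0 to 6 matches: 2 in NNT-AS1, 6 in MNX1-AS1, 3 in TMEM147-AS1, 1 in WAC-AS1 and none in TMPO-AS1 or KMT2E-AS1. RefSeq windows of 300 bases, from 250 before to 50 after a start, were found for 67 members by symbol and gave 83 windows. Their median GC content was 65.67%, against 58.67% over all 35116 promoter windows. A GC box occurred in 55.4% of member windows and in 45.0% of all windows. A CCAAT box occurred in 37.3% and 34.6%, a TATA box (TATAAA) in 4.82% and 11.5%, and the ETS motif CCGGAAG in 15.7% and 10.3%. A match is a description of letters, and binding was not measured.

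Libraries held 5626146 to 8631273 gene counts. Epithelial markers KRT8, KRT18, KRT19 and EPCAM were present in every group, and CDH1 was low in SUIT2 at 27.3 CPM in DMSO. CPM is the count scaled to library depth with the trimmed mean of M-values (TMM). The fibroblast marker DCN had 0 counts and the leukocyte marker PTPRC had 1 count over 18 libraries, while CD68 and CD14, listed with PTPRC, had 4025 and 246 counts and COL1A1 was detected in Panc327 at 49.4 CPM. Records aligned to several places made up 52.79% ± 1.81 (SD, n = 3) in Panc327 with THZ1 against 13.62% ± 0.149 with DMSO, and 22.81% ± 0.805 against 12.84% ± 0.609 in BxPC3. In SUIT2 they made up 12.91% and 13.23%. Records that the counter called ambiguous between genes made up 0.5576% with THZ1 and 0.9974% with DMSO in Panc327. The part of these shares in the results was not tested. Since TMM sets the typical gene near 0, all fold changes are relative to it, and fewer cells cannot be told apart from less RNA per cell in bulk libraries.

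More members were lower than higher with THZ1 in BxPC3 and SUIT2, and in Panc327 the balance turned with the count minimum. A gene was called when its adjusted p in edgeR's quasi-likelihood test was under 0.05 over all 14011 genes tested. In BxPC3 52 members were lower and 18 higher, where 69.4% of all genes were called, 34.1% lower and 35.2% higher. In Panc327 37 were lower and 23 higher, and 46 lower and 47 higher at a minimum of 10 counts, where 73.4% of all genes were called, 37.8% lower and 35.6% higher. In SUIT2 25 were lower and 0 higher, and 16 lower in DESeq2, where 14.6% of all genes were called, 7.64% lower and 6.95% higher. The members called lower were thus 45.6%, 32.5% and 21.9% of the 114. In SUIT2 1 member, SVIL-AS1, was higher at an unadjusted p under 0.05 in edgeR, and likewise 1 in DESeq2 and 1 in limma voom, each with 0 after adjustment. Median log2 fold changes of the members were -0.44 in BxPC3, -0.16 in Panc327 and -0.22 in SUIT2, against 0.00, -0.01 and 0.01 over all genes.

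Part of these counts follows from the count minimum. In BxPC3 38 members reached 30 counts with DMSO only, of which 27 were lower and 0 higher, and 5 with THZ1 only, all 5 higher. Among the 33 that reached it in both groups, 13 were lower and 12 higher. In Panc327 the 52 members at the minimum in both groups gave 19 lower and 15 higher calls. In SUIT2 the 60 such members gave 20 lower and 0 higher calls. Scaling by library size alone moved the median of all genes to -0.35 in BxPC3 and -0.34 in Panc327 and left it at 0.00 in SUIT2. The split then became 66 lower and 8 higher in BxPC3, 53 lower and 18 higher in Panc327, and 26 lower and 0 higher in SUIT2. Some members named below also reached 30 counts with 1 treatment only. UCKL1-AS1, KMT2E-AS1 and PRR34-AS1 did so with THZ1 in BxPC3 and Panc327. With THZ1 only, ASMTL-AS1 reached it in BxPC3, SLFNL1-AS1 and TRAF3IP2-AS1 in Panc327, and ZEB1-AS1 in SUIT2. With DMSO only, MNX1-AS1, JHDM1D-AS1, EPB41L4A-AS1 and TMEM147-AS1 reached it in BxPC3. MCM3AP-AS1, PRKCQ-AS1, MAFG-AS1, AGAP2-AS1, CKMT2-AS1 and LLPH-AS1 did so with DMSO only in Panc327. CTBP1-AS2, EIF3J-AS1, TMPO-AS1, MORC2-AS1, NNT-AS1, GABPB1-AS1 and HNRNPU-AS1 did so in both lines. In SUIT2, RHPN1-AS1, TMEM147-AS1, FAM83H-AS1, NNT-AS1 and TMCC1-AS1 reached it with DMSO only. Their separations and adjusted p-values in those lines describe members picked where they were high.

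**Figure D1:**
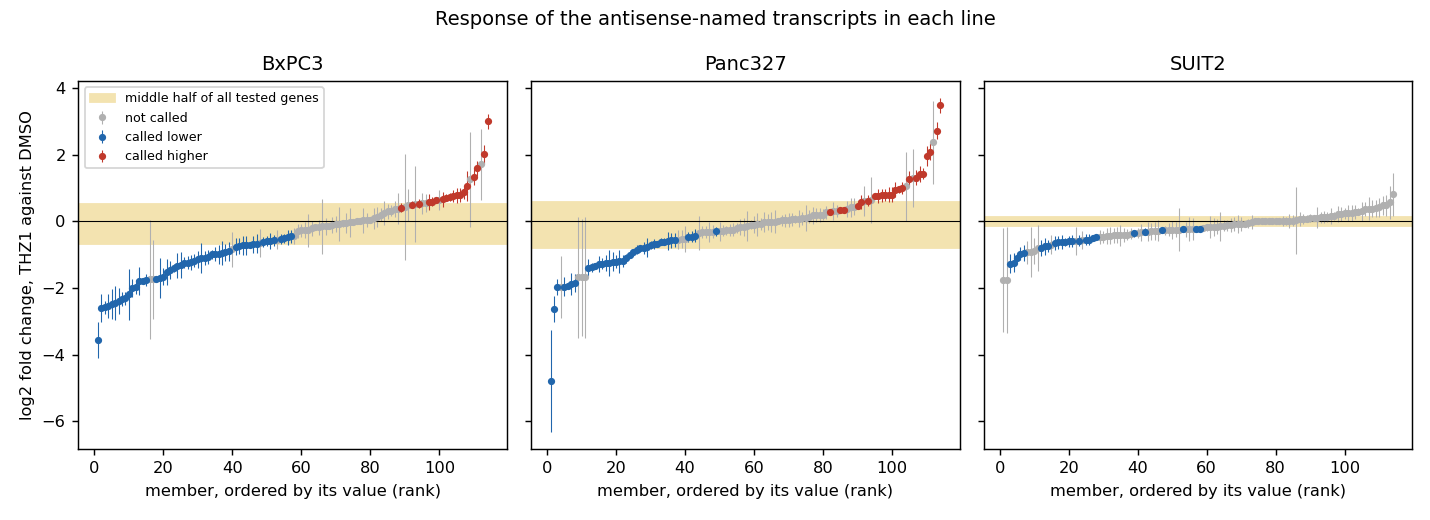
Log2 fold change of each of the 114 members, THZ1 against DMSO, ordered within each line; bars are standard errors, colours mark edgeR calls, and the band spans the middle range (lower to upper quartile) of all tested genes. Calls lie on both sides of 0 in BxPC3 and Panc327, and in SUIT2 all 25 calls are below 0.

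Members that rose did so in BxPC3 and Panc327. UCKL1-AS1, head-to-head with the uridine-cytidine kinase gene UCKL1, had the largest rise. Its levels in BxPC3 were 1.34, 2.94 and 1.25 CPM with DMSO and 16.7, 15.2 and 12.8 CPM with THZ1. In Panc327 they were 1.11, 2.14 and 0.873 CPM with DMSO and 17.5, 13.9 and 15 CPM with THZ1. The groups did not overlap in either line, and the log2 fold changes were 2.99 ± 0.21 (SE, adjusted p = 2.55e-23, edgeR) and 3.48 ± 0.22 (adjusted p = 5.5e-26, edgeR). In SUIT2 UCKL1-AS1 was low in all 6 libraries, with 0.486 to 0.663 CPM with DMSO and 0.695 to 1.01 CPM with THZ1 (log2 fold change 0.57, adjusted p = 0.5, edgeR). Its sense gene also rose, by a log2 fold change of 1.03 in BxPC3, 1.23 in Panc327 and 0.36 in SUIT2. UCKL1-AS1 is annotated as 1 exon block of 3602 bases, of which 3032 lie inside the UCKL1 gene and 156 in its exons. Without strand, reads of unspliced UCKL1 RNA there cannot be told apart from UCKL1-AS1.

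KMT2E-AS1 rose while KMT2E, a chromatin-binding trithorax-family gene, fell. KMT2E-AS1 was at 2.31, 3.39 and 1.82 CPM with DMSO and 7.47, 9.37 and 5.98 CPM with THZ1 in BxPC3. In Panc327 it was at 1.33, 1.61 and 0.873 CPM with DMSO and 8.33, 8.28 and 8.68 CPM with THZ1. Every treated library of these lines lay above every control library, with log2 fold changes of 1.58 ± 0.23 (adjusted p = 1.56e-09, edgeR) and 2.71 ± 0.26 (adjusted p = 1.3e-16, edgeR). KMT2E changed by -0.19 in BxPC3 and -1.06 in Panc327, called lower in each. In SUIT2 KMT2E-AS1 ranged from 0.994 to 1.47 CPM with DMSO and from 1.34 to 1.97 CPM with THZ1, and the groups overlapped. GENCODE places 143 of its exonic bases in KMT2E exons.

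Other members that rose in both lines were ASMTL-AS1 (2.01 in BxPC3, 1.95 in Panc327), PRR34-AS1 (1.34, 1.42), MMP24-AS1 (0.70, 1.43) and LRRC75A-AS1 (0.63, 0.75). ASMTL-AS1 lies in the pseudoautosomal region, whose X and Y copies are near-identical, so its count is uncertain. LRRC75A-AS1, a host of small nucleolar RNAs, went from 286, 266 and 273 CPM to 425, 421 and 434 CPM in BxPC3 and from 345, 343 and 349 to 599, 590 and 558 CPM in Panc327. In SUIT2 it was at 386, 400 and 400 CPM with DMSO and 406, 384 and 391 CPM with THZ1, with overlapping groups. SLFNL1-AS1 rose in Panc327 (2.09, adjusted p = 2.53e-11, edgeR) and had a value of 0.25 in BxPC3 that was not called. In all, 11 members, or 9.65%, were higher in both BxPC3 and Panc327, against 26.1% of all genes. LLPH-AS1 was called higher in BxPC3 (1.05, adjusted p = 0.0307, edgeR) on 20 and 28 summed counts, and 4 single-library omissions (BxPC3 DMSO replicate 2 or 3, THZ1 replicate 1 or 2) ended that call, with adjusted p from 0.0587 to 0.144, as did library-size scaling (0.66, adjusted p = 0.184, edgeR).

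The 3 largest falls in BxPC3 were in the head-to-head members RHPN1-AS1, MNX1-AS1 and CTBP1-AS2. CTBP1-AS2, opposite the transcriptional corepressor gene CTBP1, fell in all 3 lines. Its levels were 12.9, 14.4 and 15.5 CPM with DMSO and 2.31, 2.65 and 2.16 CPM with THZ1 in BxPC3. In Panc327 they were 10.5, 12.8 and 9.17 and then 4.34, 5.59 and 4.34 CPM, and in SUIT2 17.9, 18.4 and 19.0 and then 9.63, 7.72 and 8.34 CPM. No treated library reached a control library of the same line. The log2 fold changes were -2.58 ± 0.20, -1.19 ± 0.18 and -1.10 ± 0.13 (adjusted p = 3.07e-21, 9.26e-09 and 7.32e-11, edgeR). CTBP1 changed by -0.63, -0.33 and -0.20, also called lower in each.

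AFAP1-AS1, went from 104, 109 and 108 to 32.2, 30.4 and 33.7 CPM in BxPC3. In Panc327 it went from 96.2, 101 and 106 to 25.9, 27.7 and 25.5 CPM, and in SUIT2 from 221, 217 and 213 to 177, 190 and 182 CPM. The groups were separate in each line, with log2 fold changes of -1.74 ± 0.07, -1.94 ± 0.07 and -0.25 ± 0.05 (adjusted p = 6.42e-40, 2.13e-41 and 6.09e-05, edgeR). AFAP1, an actin-filament adaptor gene, had values of -0.12, -0.18 and 0.29, none of which was called. The 10 members lower in all 3 lines, 8.77% against 4.32% of all genes, included AFAP1-AS1, AGAP2-AS1, CTBP1-AS2, FAM83H-AS1, OTUD6B-AS1, VPS9D1-AS1 and WAC-AS1. In SUIT2 their log2 fold changes ran from -0.22 in WAC-AS1 to -1.10 in CTBP1-AS2. WAC-AS1 lost its SUIT2 call without SUIT2 DMSO replicate 1 (adjusted p = 0.0777, edgeR) or THZ1 replicate 1 (adjusted p = 0.0625, edgeR). Members higher in all 3 lines numbered 0, against 3.62% of all genes.

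FAM83H-AS1, which GENCODE classes as protein coding, fell by 1.78, 1.35 and 0.96 on the log2 scale in BxPC3, Panc327 and SUIT2. RHPN1-AS1 fell in BxPC3 from 3.29, 3.05 and 2.39 CPM to 0, 0 and 0.664 CPM, and in SUIT2 from 3.40, 3.05 and 4.53 to 1.57, 1.49 and 1.51 CPM. Its log2 fold change was -3.56 ± 0.53 in BxPC3 on 75 and 4 summed counts (adjusted p = 4.4e-09, edgeR) and -1.27 ± 0.29 in SUIT2 (adjusted p = 0.000918, edgeR), with -0.14 in Panc327. All 4 counts were in BxPC3 THZ1 replicate 3, and without it the fitted value was -7.49. MORC2-AS1, MCM3AP-AS1 and MAFG-AS1 fell in BxPC3 (-2.54, -2.49, -2.39) and in Panc327 (-1.86, -2.63, -1.97) and had values of -0.28, -0.30 and -0.46 in SUIT2 that were not called. Without BxPC3 THZ1 replicate 1, the values of MORC2-AS1 and MCM3AP-AS1 in BxPC3 were -3.84 and -3.84.

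ZEB1-AS1 had 12 summed counts with DMSO and 0 with THZ1 in Panc327. The treated group was set to 3 summed counts, the upper limit that a count of 0 allows. With the 12 control counts taken as exact, it was at least 2.28-fold lower. In BxPC3 it went from 30 to 6 summed counts (log2 fold change -1.70, adjusted p = 0.00856, edgeR), and this call ended without BxPC3 THZ1 replicate 2 (adjusted p = 0.0897, edgeR). Without THZ1 replicate 1 the value was -2.65. In SUIT2 ZEB1-AS1 was at 3.16, 3.54 and 3.54 CPM with DMSO and 3.81, 3.52 and 4.05 CPM with THZ1. PRKCQ-AS1 went from 6.21, 6.54 and 6.77 to 2.43, 2.07 and 0.395 CPM in Panc327 (-1.96 ± 0.29, adjusted p = 3.42e-09, edgeR). In BxPC3 PRKCQ-AS1 had 22 and 3 summed counts, a ratio of 4.91 (exact 95% interval 1.47 to 25.6). Its BxPC3 call was lost without THZ1 replicate 1 or 3 (adjusted p = 0.0601 and 0.0697, edgeR), and the fitted value was -5.74 without replicate 2. Intervals cover counting error only, and the floor covers that of the treated group only.

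**Figure D2:**
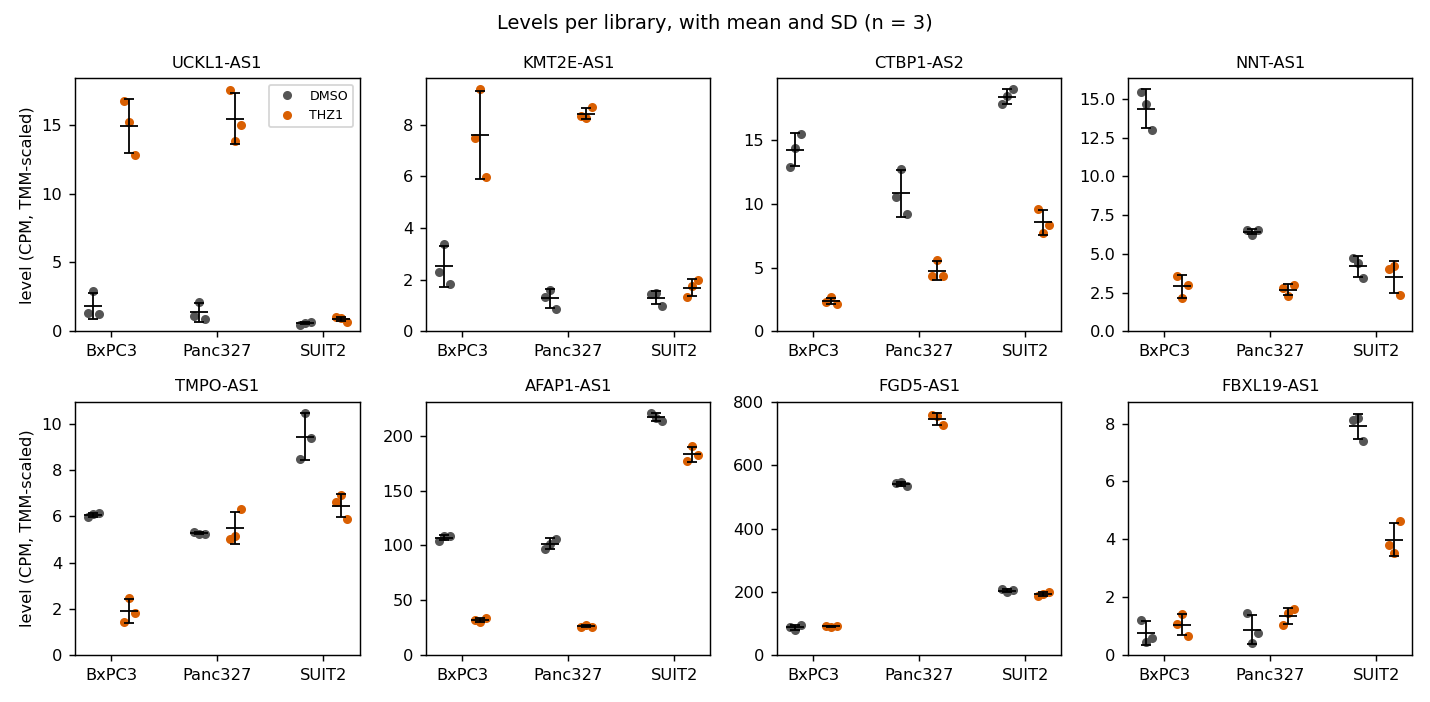
CPM of 8 members in each of the 18 libraries, with DMSO in grey, THZ1 in orange, and the mean and SD of 3 libraries in black; each vertical axis starts at 0. UCKL1-AS1 and KMT2E-AS1 rise in BxPC3 and Panc327, CTBP1-AS2 and AFAP1-AS1 fall in all 3 lines, and FBXL19-AS1 falls in SUIT2.

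Head-to-head members gave 34 lower and 10 higher calls of 62 in BxPC3, with a median of -0.62, and overlapping members gave 17 lower and 7 higher calls of 46, with a median of -0.14. The lower calls were 54.8% of head-to-head and 37.0% of overlapping members, beside 34.1% of all genes. In Panc327 the counts were 22 lower and 10 higher among head-to-head members and 13 lower and 11 higher among overlapping members. These were 35.5% and 28.3% lower, beside 37.8% of all genes, so neither class exceeded that share. In SUIT2 16 and 9 were lower, 25.8% and 19.6%, beside 7.64% of all genes. Members with exonic overlap had a median of -0.16 in BxPC3 and those without it a median of -0.72. These medians are descriptions, and the difference between classes was not tested.

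The sense genes were described beside the members. Of 102 tested sense genes, 36 were higher and 35 lower in BxPC3, 28 and 39 in Panc327, and 7 and 7 in SUIT2. The higher calls were 35.3%, 27.5% and 6.86%, beside 35.2%, 35.6% and 6.95% of all genes. The lower calls were 34.3%, 38.2% and 6.86%, beside 34.1%, 37.8% and 7.64% of all genes. Of 103 pairs with both genes tested, 19 in BxPC3 were lower together, 9 higher together and 19 moved in opposite directions. In Panc327 14 were lower together, 6 higher together and 17 opposite, and in SUIT2 4 were lower together with 0 opposite. In BxPC3 this was 18.4% lower together, 8.74% higher together and 18.4% opposite, beside 12.6%, 14.3% and 23.1% of 9024 pairs of neighbouring genes. In Panc327 it was 13.6%, 5.83% and 16.5%, beside 16.0%, 14.4% and 26.3%, and in SUIT2 3.88% were lower together, beside 0.687%. The log2 fold changes had the same sign in 59.2%, 51.5% and 48.5% of pairs, and in 50.3%, 52.1% and 48.3% of the neighbouring pairs. Across pairs, which share the same libraries, Spearman's rho was 0.165, 0.103 and 0.097 (n = 103). Among the 38 overlapping pairs rho was 0.439, 0.36 and 0.133, and among the 60 head-to-head pairs 0.0786, -0.0191 and 0.116.

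**Figure D3:**
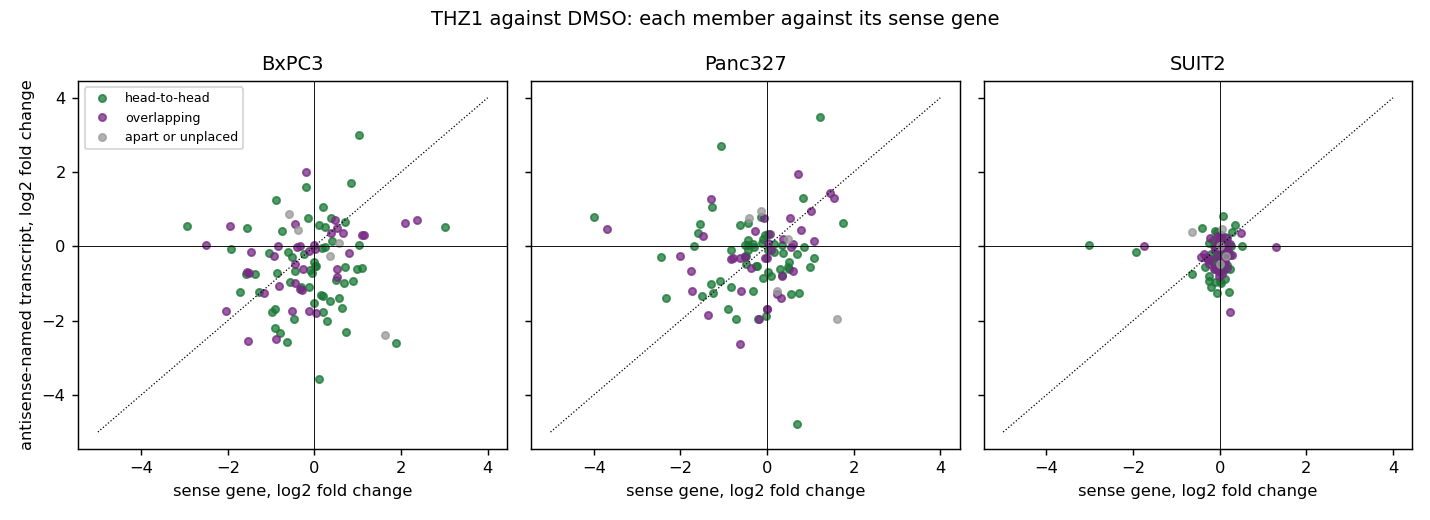
Log2 fold change of each member against that of its sense gene, THZ1 against DMSO, for 103 pairs per line; colour gives the arrangement of the pair and the dotted line marks equal change. Points spread over all 4 quadrants in BxPC3 and Panc327, and in SUIT2 most sense genes lie near 0.

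The antisense to sense ratio was taken within each library as the log2 of the ratio of counts plus 0.5, so it does not depend on scaling between libraries. Among pairs with a mean of at least 30 counts for each gene, 23 of 44 had a lower ratio with THZ1 in BxPC3 without overlap between the groups, and 8 a higher ratio. For pairs of neighbouring genes 79.0% did not overlap in BxPC3, 80.8% in Panc327 and 36.2% in SUIT2. In Panc327 22 of 58 ratios were lower and 19 higher, and in SUIT2 20 of 57 were lower and 2 higher. With 3 libraries against 3 the smallest 2-sided p of the exact permutation test is 0.1, which every pair without overlap reached.

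NNT-AS1 and NNT, which encodes a mitochondrial transhydrogenase, moved in opposite directions. NNT-AS1, whose upstream stretch is printed above, fell in BxPC3 from 15.5, 14.7 and 13.0 to 3.56, 2.12 and 2.99 CPM and in Panc327 from 6.54, 6.22 and 6.55 to 2.78, 2.28 and 2.96 CPM. NNT rose from 138, 129 and 140 to 227, 222 and 225 CPM in BxPC3. The groups of each gene were separate in both lines, with log2 fold changes for NNT-AS1 of -2.31 ± 0.20 and -1.26 ± 0.24 (adjusted p = 5.05e-19 and 2.24e-06, edgeR) and for NNT of 0.73 and 0.75. The log2 ratio changed from -3.24 ± 0.165 to -6.27 ± 0.351 in BxPC3 and from -3.86 ± 0.103 to -5.85 ± 0.172 in Panc327 (SD, n = 3, exact permutation p = 0.1 each). In SUIT2 it went from -5.28 to -5.70 with overlapping groups (exact permutation p = 0.3, n = 3).

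MNX1-AS1, opposite the homeobox gene MNX1, fell in BxPC3 from 4.87, 3.28 and 2.73 to 0.889, 0.530 and 0.332 CPM, while MNX1 went from 2.80, 3.17 and 3.30 to 9.07, 11.1 and 14.0 CPM. Neither pair of groups overlapped, and the log2 fold changes were -2.61 ± 0.42 and 1.88 ± 0.19 (adjusted p = 4.36e-08 and 2.77e-15, edgeR). In Panc327 MNX1-AS1 had 15 and 2 summed counts, a ratio of 4.27 (exact 95% interval 0.993 to 38.5). MAFG-AS1 and MAFG, a small Maf transcription factor gene, also moved apart, with MAFG at 1.63 in BxPC3 and 1.62 in Panc327. Their log2 ratio changed by -3.88 in BxPC3 and -3.54 in Panc327. EIF3J-AS1 fell by 2.003 and 1.874 on the log2 scale, where the translation initiation gene EIF3J had 0.29 and -0.02.

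TMPO-AS1, opposite TMPO, which encodes nuclear lamina-associated polypeptides, responded differently by line. Its ratio to TMPO was among the 3 largest ratio falls in BxPC3, with separate groups. TMPO-AS1 was at 5.96, 6.11 and 6.15 CPM with DMSO and 1.42, 2.47 and 1.83 CPM with THZ1 in BxPC3. In Panc327 it was at 5.32, 5.25 and 5.24 and then 5.03, 5.17 and 6.31 CPM. The BxPC3 groups were separate (-1.66 ± 0.25, adjusted p = 5.9e-09, edgeR) and the Panc327 groups overlapped (0.06 ± 0.20, adjusted p = 0.808, edgeR). In SUIT2 it fell from 8.50, 10.5 and 9.39 to 6.61, 6.91 and 5.91 CPM (-0.55, adjusted p = 0.00841, edgeR), and this call ended without SUIT2 DMSO replicate 2 (adjusted p = 0.0581, edgeR) or THZ1 replicate 3 (adjusted p = 0.0513, edgeR). TMEM147-AS1, opposite an endoplasmic reticulum membrane protein gene, fell in SUIT2 from 2.67, 4.76 and 3.43 to 2.24, 1.35 and 0.926 CPM (-1.24 ± 0.29, adjusted p = 0.00122, edgeR). Its log2 ratio to TMEM147 changed by -1.56 in BxPC3, -0.89 in Panc327 and -1.49 in SUIT2, with separate groups in each.

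In other pairs the ratio rose. ZBED5, a transposon-derived zinc finger gene, fell by 2.93 and 3.99 on the log2 scale in BxPC3 and Panc327, from 38.5, 36.4 and 34.0 to 4.62, 6.01 and 3.65 CPM in BxPC3. ZBED5-AS1 had 0.55 (adjusted p = 0.0655, edgeR) in BxPC3 and rose by 0.79 (adjusted p = 0.000862, edgeR) in Panc327. The ratio was 11.3 times higher in BxPC3 and 29.7 times higher in Panc327, and 0.939 times the control ratio in SUIT2. ZBED5-AS1 was under the minimum of 30 mean counts for pairs in BxPC3 and SUIT2. GENCODE places 26.97% of its exonic bases in ZBED5 exons. TRAF3IP2-AS1 and TRAF3IP2, an adaptor of interleukin-17 signalling, had ratios 5.79 and 6.01 times higher in BxPC3 and Panc327. In BxPC3 TRAF3IP2-AS1 was also under that minimum. MAPKAPK5-AS1 and the kinase gene MAPKAPK5 had a ratio 2.25, 1.68 and 1.23 times higher in BxPC3, Panc327 and SUIT2, with separate groups in each, and GENCODE places 34.59% of the exonic bases of MAPKAPK5-AS1 in exons of its sense gene.

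FBXL19-AS1 went opposite ways in its ratio to FBXL19, a CpG-binding F-box gene. In SUIT2 it fell from 8.14, 8.18 and 7.40 to 3.81, 3.52 and 4.63 CPM, with separate groups (-0.98 ± 0.19, adjusted p = 0.000104, edgeR), and FBXL19 had 0.03. In BxPC3 and Panc327 it had 0.49 and 0.61, not called, on 18 to 24 summed counts per group, while FBXL19 fell by 1.56 and 1.54. The ratio was 4.416 and 5.003 times higher in BxPC3 and Panc327 and 0.499 times the control ratio in SUIT2, with separate groups in each. WAC-AS1 and WAC, an adaptor of histone H2B ubiquitination, fell together by 0.71 and 0.86 in BxPC3 and by 1.02 and 1.29 in Panc327, so their ratio changed little, by 0.15 and 0.27 on the log2 scale with overlapping groups.

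**Figure D4:**
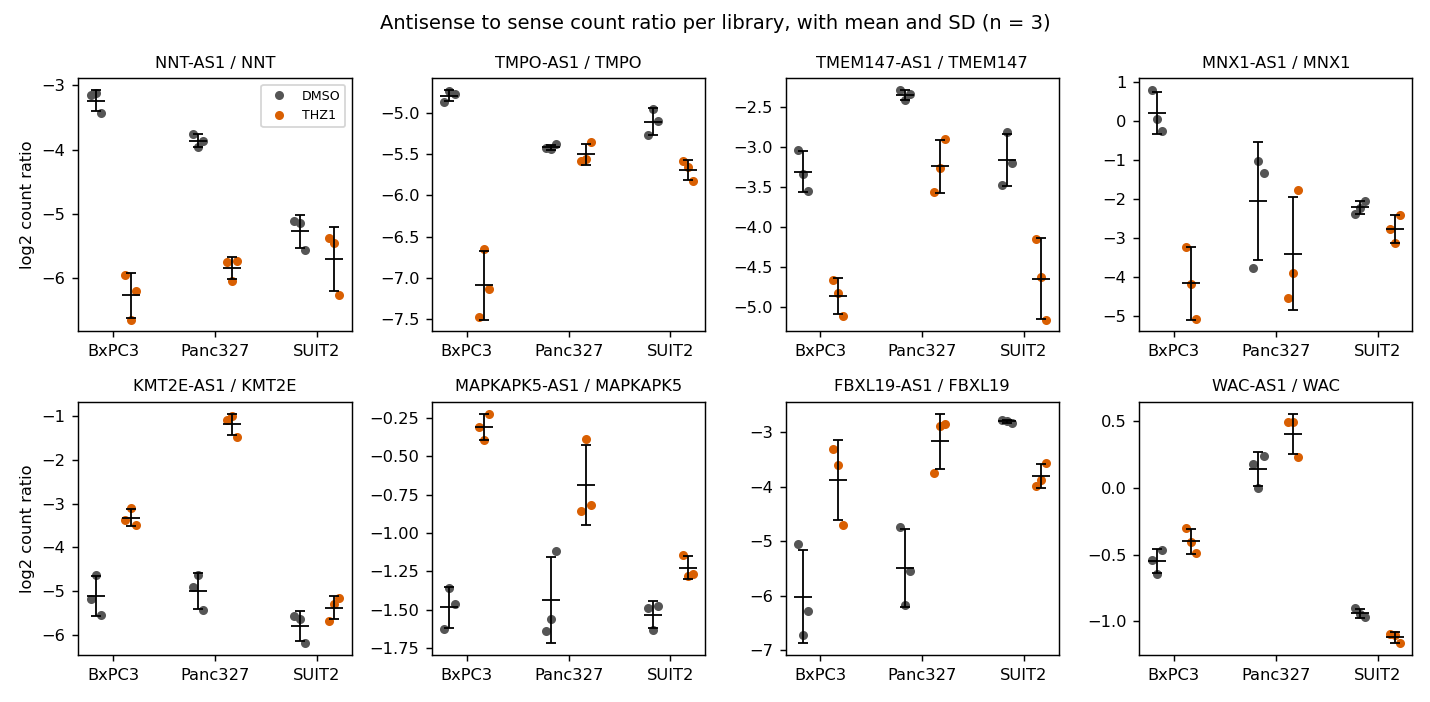
Log2 ratio of antisense to sense counts in each of the 18 libraries for 8 pairs, with DMSO in grey, THZ1 in orange, and the mean and SD of 3 libraries in black. The ratio of NNT-AS1 to NNT falls in BxPC3 and Panc327 and overlaps in SUIT2, and that of KMT2E-AS1 to KMT2E rises in BxPC3 and Panc327.

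The responses were compared between lines by the interaction contrast of the same fit. Between BxPC3 and Panc327, 27 members had a lower and 8 a higher response in BxPC3, where 36.3% of all genes differed, 14.1% lower and 22.2% higher. Between BxPC3 and SUIT2 the counts were 32 lower and 12 higher in BxPC3, where 54.9% of all genes differed. These were 28.1% lower and 10.5% higher of the members, beside 27.6% and 27.3% of all genes. The lower share was thus near that of all genes. Between Panc327 and SUIT2 they were 24 lower and 25 higher in Panc327, where 60.7% of all genes differed. These were 21.1% and 21.9% of the members, beside 32.4% and 28.3% of all genes. These comparisons share libraries in pairs. TMPO-AS1 had a response in BxPC3 minus Panc327 of -1.72 ± 0.33 (adjusted p = 9.49e-06, edgeR) and NNT-AS1 of -1.05 ± 0.35 (adjusted p = 0.0123, edgeR). JHDM1D-AS1, opposite the histone demethylase gene KDM7A, went from 15.1, 15.6 and 12.5 to 2.85, 6.54 and 3.32 CPM in BxPC3, while Panc327 had 10 and 9 summed counts. The difference was -2.40 ± 0.76 (adjusted p = 0.00802, edgeR), and it ended without Panc327 THZ1 replicate 3 (adjusted p = 0.0712, edgeR).

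NCBP2-AS2 was called in opposite directions. It went from 8.64, 8.82 and 8.43 to 11.4, 13.1 and 13.0 CPM in BxPC3 (0.53 ± 0.15, adjusted p = 0.00105, edgeR) and from 42.6, 35.7 and 35.3 to 25.9, 24.0 and 24.5 CPM in Panc327 (-0.61 ± 0.10, adjusted p = 5.16e-08, edgeR). The groups were separate in both lines and the difference was 1.14 ± 0.18 (adjusted p = 1.2e-07, edgeR). Scaled by library size alone, the BxPC3 value was 0.14 (adjusted p = 0.422, edgeR). THAP9-AS1, at 37.2, 39.0 and 39.3 CPM in Panc327 with DMSO, fell there to 20.3, 20.5 and 19.7 CPM (-0.93 ± 0.09, adjusted p = 2.9e-15, edgeR), with -0.18 in BxPC3 and 0.10 in SUIT2. The response in Panc327 minus SUIT2 was -1.03 ± 0.12 (adjusted p = 7.58e-13, edgeR).

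OIP5-AS1 overlaps the centromere gene OIP5 by 470 bases, all of them exonic in both genes. It was called lower in SUIT2 (-0.28, adjusted p = 0.0203, edgeR) and higher in Panc327 (0.33, adjusted p = 0.000833, edgeR), with -0.07 in BxPC3. Its level was 35.1, 33.1 and 32.0 and then 28.0, 28.7 and 26.1 CPM in SUIT2, and 31.5, 32.1 and 26.9 and then 42.5, 38.5 and 32.0 CPM in Panc327. The SUIT2 groups were separate and the Panc327 groups overlapped slightly. The SUIT2 call was lost in DESeq2 (adjusted p = 0.0552) and without SUIT2 DMSO replicate 1 or THZ1 replicate 3, and the Panc327 call was lost without Panc327 THZ1 replicate 1 (adjusted p = 0.0529, edgeR) and with library-size scaling (0.00, adjusted p = 0.997, edgeR). The response in Panc327 minus SUIT2 was 0.60 ± 0.13 (adjusted p = 1.7e-05, edgeR). EPB41L4A-AS1 and GABPB1-AS1 were lower in BxPC3 (-0.99 and -0.74) and not called in the other lines.

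With DMSO the members' levels were a description of the lines, with no test. The highest CPM in Panc327 was FGD5-AS1 at 542 ± 6.51 (SD, n = 3), against 203 ± 4.94 in SUIT2 and 87.1 ± 7.17 in BxPC3. FGD5-AS1 rose with THZ1 in Panc327 from 543, 548 and 535 to 760, 757 and 726 CPM (0.46 ± 0.04, adjusted p = 5.05e-19, edgeR), and it had 0.05 in BxPC3 and -0.07 in SUIT2. LRRC75A-AS1 was at 275 ± 10.2 in BxPC3, 346 ± 2.69 in Panc327 and 395 ± 8.32 in SUIT2, with no overlap of libraries between lines. CALML3-AS1 was at 18.2 ± 0.587 CPM in Panc327 and at 0.116 and 0.151 CPM in BxPC3 and SUIT2, and it fell in Panc327 with THZ1 to 8.85, 4.76 and 8.68 CPM (-1.27 ± 0.16, adjusted p = 4.09e-11, edgeR). Its sense gene CALML3, a calmodulin-like epithelial gene, had 0.55 there.

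Genes of nuclear RNA decay and early termination, which act on antisense and upstream antisense transcripts, were counted from a list of 29 tested genes. In BxPC3 18 were lower and 8 higher, in Panc327 18 lower and 9 higher, and in SUIT2 3 lower and 2 higher. The lower calls were 62.1%, 62.1% and 10.3% of the list, beside 34.1%, 37.8% and 7.64% of all genes. The higher calls were 27.6%, 31.0% and 6.9%, beside 35.2%, 35.6% and 6.95% of all genes. ZC3H4, of the restrictor complex that ends unproductive transcription, fell by 3.52 in BxPC3, 4.64 in Panc327 and 0.58 in SUIT2 on the log2 scale, and its partner WDR82 fell by 1.09 and 1.79 in BxPC3 and Panc327. EXOSC3, a core exosome subunit, fell by 1.87 and 1.96, and RBM7, of the nuclear exosome targeting complex, by 0.83 and 2.53. SRRT, the cap-binding adaptor ARS2, rose by 1.54 and 0.91. PAPD7, C1D, PABPN1, EXOSC5, NCBP2 and XRN2 were also called higher in both lines, PAPD7 by 1.22 and 1.10. Whether these changes bear on the members was not tested.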

How the data were processed

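RNA of 18 libraries was measured as gene counts. Per the submitters' processing notes, the authors used bcl2fastq 1.8.4, TopHat2 2.1.0, HTSeq 0.6.1 and hg38, and deposited whole-number counts per gene symbol, not normalized. The counting annotation and strand are not given in the sources used. Summary entries of the counter, 21.3049% to 64.571% of records, were left out. Members and lists were chosen with earlier results of these data known. Genes were kept by filterByExpr (minimum count 10) and tested with edgeR 4.0.16 (TMM, quasi-likelihood, 6 group means, Benjamini-Hochberg over 14011 genes) in R 4.3.3. Standard errors were approximated as the log2 fold change over the root of F. Named members were the 5 largest rises and falls per line, the 3 largest response differences and ratio changes each way, the 3 highest CPM per line and a fixed list. Other genes that are named were chosen after their values were seen. On simulated data, 37 of 40 genes with a 2-fold rise and 24 of 40 with a 1.5-fold rise were called in BxPC3, among 14011 genes. The changed genes were drawn from all tested genes and 13811 were left unchanged. In the real data 69.4% of genes were called in BxPC3, so these rates do not give the sensitivity for the members. Alternatives included DESeq2 1.42.0 and limma 3.58.1 (voom), other scalings, filters, minimums and left-out libraries. Ratios used an exact permutation test.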

Additional observations from a re-analysis of the deposited data

Results flagged for a closer look

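Responses of named members differed between lines by the interaction contrast in edgeR. In BxPC3 minus Panc327 the log2 difference was -3.415 for RHPN1-AS1 (adjusted p = 0.000166, edgeR), -2.404 for JHDM1D-AS1, -1.848 for CKMT2-AS1, 1.139 for NCBP2-AS2, 0.9385 for HNRNPU-AS1 and 0.8689 for SVIL-AS1. Without BxPC3 THZ1 replicate 3 the RHPN1-AS1 difference was -7.341, and without BxPC3 THZ1 replicate 1 that of CKMT2-AS1 was -3.012. The CKMT2-AS1 difference was lost without BxPC3 THZ1 replicate 2 (adjusted p = 0.108) or 3 (adjusted p = 0.0504) or Panc327 THZ1 replicate 1 (adjusted p = 0.0924) in edgeR. The HNRNPU-AS1 difference was lost in DESeq2 (adjusted p = 0.0556) and without BxPC3 THZ1 replicate 1 (adjusted p = 0.054, edgeR). In BxPC3 minus SUIT2 it was -2.293 for RHPN1-AS1, -2.251 for MORC2-AS1, -2.22 for CKMT2-AS1, 2.42 for UCKL1-AS1, 1.947 for ASMTL-AS1 and 1.467 for FBXL19-AS1. There RHPN1-AS1 was at -6.221 without BxPC3 THZ1 replicate 3, and MORC2-AS1 and CKMT2-AS1 were at -3.551 and -3.388 without BxPC3 THZ1 replicate 1. The FBXL19-AS1 difference was lost without BxPC3 DMSO replicate 2 (adjusted p = 0.0608) or THZ1 replicate 2 (adjusted p = 0.114), and with library-size scaling (adjusted p = 0.0756), in edgeR. In Panc327 minus SUIT2 it was -4.938 for ZEB1-AS1, a fitted value with a group at 0 counts that is no bound (-3.658 in DESeq2 and -2.254 in limma voom), -2.336 for MCM3AP-AS1, -1.845 for PRKCQ-AS1, 2.908 for UCKL1-AS1, 2.338 for KMT2E-AS1 and 2.337 for SLFNL1-AS1.

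Outside the gene counts, records aligned to several places made up 22.81% of records in BxPC3 and 52.79% in Panc327 with THZ1, above 12.84% and 13.62% with DMSO.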

How the results depend on the processing

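Low counts limit most members, and overlapping genes cannot be separated without strand. With a member minimum of 10 counts (238 members), calls were 110 in BxPC3 (31 higher, 79 lower) and 93 in Panc327 (47 higher, 46 lower), and response differences were 41 lower in BxPC3 minus Panc327 and 39 higher in Panc327 minus SUIT2. With a minimum of 100 (38 members), calls were 27 in BxPC3 (7 higher, 20 lower), 28 in Panc327 (7 higher, 21 lower) and 14 in SUIT2 (14 lower), and response differences were 21 (14 lower) in BxPC3 minus Panc327, 18 (4 higher, 14 lower) in BxPC3 minus SUIT2 and 20 (8 higher, 12 lower) in Panc327 minus SUIT2. Both change the number of members counted. With library size only, 8 members were higher in BxPC3, and higher response differences were 5, 5 and 16 in BxPC3 minus Panc327, BxPC3 minus SUIT2 and Panc327 minus SUIT2. FGD5-AS1 in BxPC3 reversed to -0.3462. DESeq2 called 16 members in SUIT2, 16 of them lower. Higher differences in BxPC3 minus Panc327 were 5 with RLE size factors, 4 in DESeq2 and 5 with only the lines compared. With a pair minimum of 100, separated ratios were 6 in BxPC3 (0 higher, 6 lower), 12 in Panc327 (4 higher, 8 lower) and 9 in SUIT2 (7 lower). The cause of the changes with scaling and tool was not tested.

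Leaving out single libraries gave 0 to 1 members higher in SUIT2 (1 without THZ1 replicate 2), 5 to 8 higher in BxPC3 minus Panc327 (5 without BxPC3 THZ1 replicate 1), and 2 to 6 higher ratios in SUIT2. For named members, 29 of the single-library omissions ended a call and 14 made one, and 875 kept the side of the threshold and the direction where called.

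Same-numbered libraries correlated by -0.2466 to 0.09386, so the labels' numbers give no pairing. In SUIT2, DMSO replicate 2 with THZ1 replicate 1 correlated by 0.2299, and DMSO replicate 1 with THZ1 replicate 2 by 0.2096. A pairing under other numbers was not tested. The replicate block left 135 of 135 named results on the same side of the threshold, and 5 ratios were higher in SUIT2 with it.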

Other observations

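Transcripts named LINC, another class of long non-coding RNA, gave 35 lower and 25 higher calls of 115 in BxPC3, 28 lower and 34 higher in Panc327, and 15 lower and 3 higher in SUIT2 (edgeR, adjusted p under 0.05). Their medians were -0.16, 0.02 and -0.08 on the log2 scale. Over all 224 antisense-named rows that were tested, 80 were lower and 32 higher in BxPC3, 46 lower and 50 higher in Panc327, and 30 lower and 0 higher in SUIT2. The lower calls were 35.7%, 20.5% and 13.4% of these rows, beside 34.1%, 37.8% and 7.64% of all genes. In BxPC3 the share was thus near that of all genes and in Panc327 below it. The 5 members called lower in SUIT2 and in no other line were B3GALT5-AS1, FBXL19-AS1, RAB30-AS1, RNASEH1-AS1 and TMCC1-AS1. They were 4.39% of the members, beside 0.742% of all genes. All 5 reached the minimum of 30 counts in SUIT2 and in no other line. This share therefore follows in part from the count minimum. In BxPC3 and Panc327 B3GALT5-AS1 had 0 or 1 summed counts per group and TMCC1-AS1 4 to 10, too few there for a change to be detectable. RAB30-AS1 lost its call in DESeq2 (adjusted p = 0.104) and without SUIT2 DMSO replicate 3 (adjusted p = 0.102, edgeR) or THZ1 replicate 1 (adjusted p = 0.125, edgeR).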
